A study of Homo sapiens with 4 samples.

Results

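The HOXA cluster genes HOXA2, HOXA3, HOXA4, HOXA5, HOXA6, HOXA7, HOXA9, HOXA10 and HOXA11 were examined in RS4;11 and THP-1 leukemia cells. These 9 genes were taken by symbol, out of 18576 gene symbols named in the 4 deposited peak lists, and located among 20163 annotated protein-coding genes. The study profiled WDR5 and H3K4me3 by ChIP-seq in both lines, grown in RPMI medium with serum and with no treatment named, and had 1 sample for each line and antibody and no replicates. The labels call the RS4;11 WDR5 sample lymphoblastic and the THP-1 H3K4me3 sample myeloid, but give the opposite lineage for the other sample of each line. The paper treats RS4;11 as ALL and THP-1 as AML, both with MLL rearrangement. Each line is a single established cell line, so a difference between them is a difference between 2 samples and has no replicate check.

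HOX genes encode homeodomain transcription factors that set position along the body axis and, in blood, act in stem and progenitor cells. MLL, a histone methyltransferase of H3K4, maintains the expression of HOX genes, and WDR5 is a core subunit of the complexes in which MLL works. Fusion proteins made by MLL rearrangement are known to keep the HOXA genes active in leukemia, with HOXA9 and its cofactor MEIS1 as the best studied targets. H3K4me3 marks active promoters, and at highly active genes it can spread into wide domains. The HOXA genes lie side by side on chromosome 7 in the order of their numbers and are all transcribed from the minus strand.

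In THP-1 cells H3K4me3 peaks were listed at the promoters of HOXA2, HOXA4 and HOXA5, but not at HOXA9, HOXA10 or HOXA11. Peaks also lay over the annotated 5′ end of HOXA6 and over the canonical start site of HOXA7. The peak at HOXA6 was 2056 bp from the canonical HOXA6 start site. It touched the promoter window at the annotated 5′ end of HOXA3 over 15 bp. The same peak covered all 250 bases upstream of a further RefSeq start of HOXA3. In RS4;11 cells no H3K4me3 peak was listed at any of the 9 genes, and the nearest peak on the HOXA11 side lay over HOXA13. No WDR5 peak was listed in the cluster in either line. A missing peak cannot be read as missing methylation here. Neither H3K4me3 list holds a peak of 4500 bp or more, and promoters that nearly all cells use, such as those of ACTB and GAPDH, had no listed peak either.

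The sequences just upstream of the start sites are given for HOXA2, HOXA4 and HOXA7, which had an H3K4me3 peak over or near the start in THP-1 cells. They are also given for HOXA9 and HOXA10, which had no such peak. Each holds the 250 bases before a RefSeq start site (GRCh38.p14 sequence, matched exactly to hg19), 5′ to 3′ on the minus strand, with CpG dinucleotides in capitals. The table of promoters has an entry for 8 of the 9 genes and none for HOXA5.

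HOXA2, chr7:27142303-27142552: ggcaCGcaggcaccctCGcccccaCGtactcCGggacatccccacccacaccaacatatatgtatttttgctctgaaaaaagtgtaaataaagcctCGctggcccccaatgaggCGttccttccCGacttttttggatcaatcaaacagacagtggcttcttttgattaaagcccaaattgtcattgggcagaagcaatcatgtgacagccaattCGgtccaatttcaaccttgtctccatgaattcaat
HOXA4, chr7:27170377-27170626: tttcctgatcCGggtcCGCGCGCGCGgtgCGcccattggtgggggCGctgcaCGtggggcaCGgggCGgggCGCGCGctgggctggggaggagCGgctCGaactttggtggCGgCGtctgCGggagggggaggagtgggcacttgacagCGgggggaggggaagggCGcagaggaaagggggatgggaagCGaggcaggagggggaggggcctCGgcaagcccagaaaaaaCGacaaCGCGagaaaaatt
HOXA7, chr7:27196295-27196544: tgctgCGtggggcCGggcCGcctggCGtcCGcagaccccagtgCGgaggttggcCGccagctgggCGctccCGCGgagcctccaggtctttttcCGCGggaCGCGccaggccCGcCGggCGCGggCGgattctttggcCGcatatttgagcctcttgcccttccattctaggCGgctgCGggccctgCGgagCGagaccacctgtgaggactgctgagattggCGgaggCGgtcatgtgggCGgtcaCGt
HOXA9, chr7:27205157-27205406: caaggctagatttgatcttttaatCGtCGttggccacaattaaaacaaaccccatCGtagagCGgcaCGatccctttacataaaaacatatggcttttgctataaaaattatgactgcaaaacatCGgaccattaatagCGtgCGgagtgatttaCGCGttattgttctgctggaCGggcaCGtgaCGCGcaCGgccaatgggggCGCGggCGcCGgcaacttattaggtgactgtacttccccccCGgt
HOXA10, chr7:27213940-27214189: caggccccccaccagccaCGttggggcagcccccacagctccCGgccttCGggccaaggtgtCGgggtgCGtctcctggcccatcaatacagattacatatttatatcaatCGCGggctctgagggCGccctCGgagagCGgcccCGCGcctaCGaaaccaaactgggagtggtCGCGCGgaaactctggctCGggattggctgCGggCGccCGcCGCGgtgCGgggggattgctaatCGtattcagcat

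CpG dinucleotides are the sequence that the CXXC domain of MLL recognises when they are unmethylated. The HOXA7 sequence held 28 CpGs and the HOXA4 sequence 26, more than or as many as 85.9% and 82.3% of the 35116 promoters in the table. The THP-1 peaks covered all 250 bases of the HOXA4 sequence and 103 bases of the HOXA7 sequence. The HOXA9 and HOXA10 sequences held 20 and 24 CpGs, a percentile of 69.8 and 78.4, and no listed peak touched them. The HOXA2 sequence held 8 CpGs, at percentile 45.9, and the THP-1 peak ended 273 bp from it. The median over all promoters was 11 CpGs. Over the 15 RefSeq entries of the 8 genes the number ran from 0, at a start inside HOXA3, to 28, with a median of 19. A HOXA3 entry under the HOXA6 peak, with 26 CpGs, was also covered over all 250 bases. The entries touched by a THP-1 peak thus held 26 to 28 CpGs, and of the untouched entries only that of HOXA6 reached this range. Whether CpG number bears on the listing of a peak was not tested. The HOXA6 entry, with 27 CpGs, lay 1806 bp from the nearest THP-1 peak.

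The 9 genes span chr7:27139973-27224851 in hg19, an interval of 84879 bp from HOXA2 to HOXA11. The RS4;11 list held 0 H3K4me3 peaks in it. The THP-1 list held 6 peaks, 607 to 2846 bp wide, which covered 10115 bp (11.9% of the interval). None of the sequence under these THP-1 peaks was thus covered by a listed peak in RS4;11 cells.

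**Figure D1:**
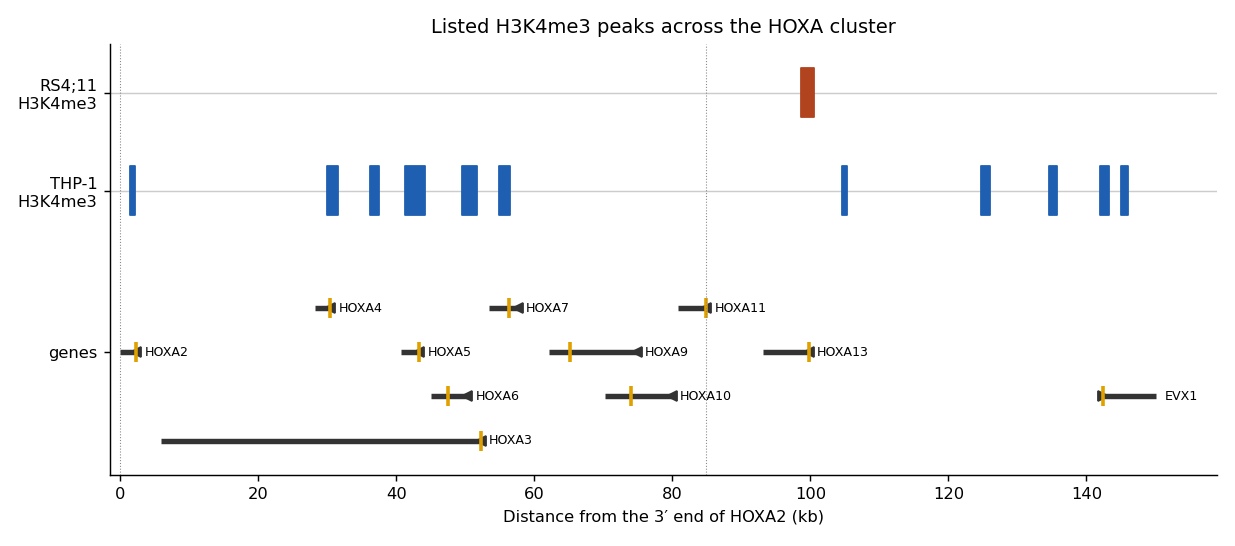
Listed H3K4me3 peaks (boxes) in RS4;11 and THP-1 cells along the HOXA genes, with the x axis in kb from the 3′ end of HOXA2 and dotted lines at both ends of the interval from HOXA2 to HOXA11. Gene bars carry an arrowhead at the 5′ end and a yellow tick at the canonical TSS, and between the dotted lines the RS4;11 row is empty while the THP-1 row holds 6 peaks, the last at HOXA7.

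Next to HOXA11, HOXA13, a gene of limb and genital development, had a peak in RS4;11 cells alone, from 27238549 to 27240504 (1956 bp). It covered the HOXA13 TSS and the 5′ part of HOTTIP, a non-coding RNA known to bind WDR5 and to bring MLL complexes to the distal HOXA genes. In THP-1 cells the nearest peak to the HOXA13 TSS lay 4799 bp away, from 27244509 to 27245252 (744 bp), within HOTTIP. Over the 7 non-coding genes examined along the cluster, 2 had a peak in the promoter window in the RS4;11 line (HOTAIRM1 and HOTTIP) and 2 in THP-1 cells (HOTAIRM1 and HOXA-AS3). HOXA-AS2, HOXA10-AS, HOXA11-AS and MIR196B had none in either line.

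Promoter H3K4me3 of the genes was scored by any overlap of a peak with a window that began 2000 bp before the transcription start site (TSS) and ended 500 bp after it. In RS4;11 cells 0 of the 9 genes had a peak in the window, where 49.1% of all protein-coding genes had one. In THP-1 cells 5 of the 9 genes had one, against 55.3% of all protein-coding genes. That count includes HOXA3 with its 15 bp, and it fell to 2, HOXA4 and HOXA6, when the center of the peak had to lie in the window. None of the 9 genes had a peak in both lines (43.4% of all genes did), 5 had one in THP-1 and not in RS4;11 cells (11.9% of all genes), and 0 had one in RS4;11 and not in THP-1 cells (5.71%). With the TSS of the canonical transcript in place of the 5′ end of the gene, the counts were again 0 in RS4;11 cells (background 51.9%) and 5 in THP-1 cells (background 59.3%). The genes behind the second count changed, since HOXA7 entered and HOXA6 left.

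The anterior genes of the cluster, HOXA2 and HOXA3, are best known for patterning of the hindbrain and pharyngeal arches. At HOXA2 the THP-1 peak from 27141424 to 27142030 was 607 bp wide, narrower than most listed peaks (percentile 13.2), and lay 275 bp inside the 5′ end of the gene. It covered 226 bp of the promoter window, and the RS4;11 peak nearest to the HOXA2 TSS lay 4930 bp away. At HOXA3 the annotated 5′ end lies far upstream, next to HOXA6 and HOXA7, because its longest transcripts run back through HOXA4 and HOXA5. Only 15 bp of its window were covered in THP-1 cells, by the peak that lies over HOXA6. Inside the long HOXA3 gene body 4 THP-1 peaks covered 7989 bp, namely those at HOXA4, HOXA5 and HOXA6 and 1 between HOXA4 and HOXA5. A further RefSeq start of HOXA3 lies under the HOXA6 peak, which covered all 250 bases upstream of it. From the annotated 5′ end of HOXA3 the nearest RS4;11 peak was 46347 bp away.

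HOXA4, HOXA5 and HOXA6 form the middle of the cluster. HOXA4 had the clearest placement, with a THP-1 peak from 27169935 to 27171576 (1642 bp) that covered the TSS and lay wholly inside the promoter window. The same peak reached the window of HOXA-AS3, an antisense RNA. HOXA5, a regulator of lung development that also influences myeloid differentiation, had the widest of the 6 THP-1 peaks, from 27181213 to 27184058 (2846 bp, percentile 87.9 of all THP-1 widths). It covered the TSS and 2088 bp of the gene, and 1259 bp of the window. At HOXA6 the peak from 27189449 to 27191716 (2268 bp) covered the annotated 5′ end and 1995 bp of the window. The canonical HOXA6 TSS lies further in and was 2056 bp from this peak. Another THP-1 peak, from 27176199 to 27177431 (1233 bp), lay between HOXA4 and HOXA5 over no start of a coding gene. It had 1.22 CpGs per 100 bp, the lowest value among the 6 THP-1 peaks, which otherwise ran from 4.72 to 6.88. The nearest RS4;11 peaks were 33024 bp from the HOXA4 TSS, 45925 bp from that of HOXA5 and 48327 bp from that of HOXA6.

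HOXA7 is the last gene with H3K4me3 in the THP-1 list. Its peak from 27194879 to 27196397 (1519 bp) covered the canonical TSS and 604 bp of the window around it, but ended 1158 bp short of the annotated 5′ end of the gene. HOXA7 therefore counts by the canonical TSS and not by the 5′ end. The nearest RS4;11 peak was 42255 bp from the canonical TSS.

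**Figure D2:**
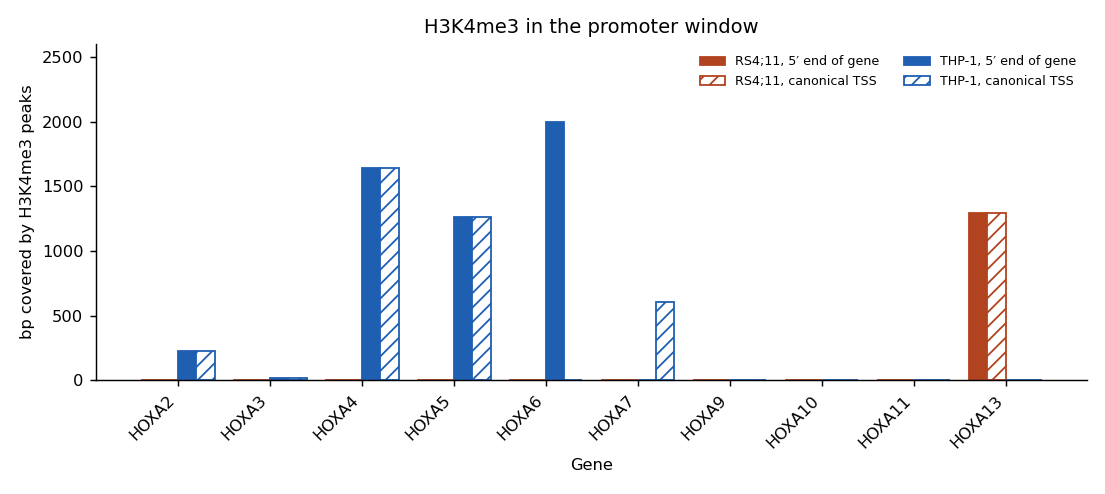
Base pairs of the 2501 bp promoter window covered by listed H3K4me3 peaks (y axis) for each HOXA gene (x axis), in RS4;11 (red) and THP-1 (blue) cells, with solid bars for the 5′ end of the gene and hatched bars for the canonical TSS. The 9 genes from HOXA2 to HOXA11 have no RS4;11 bar, and HOXA9, HOXA10 and HOXA11 have no bar at all.

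The posterior genes HOXA9, HOXA10 and HOXA11 had no listed peak in either line. HOXA9 and HOXA10 promote self-renewal of blood progenitors and are the HOXA genes most closely tied to MLL-rearranged leukemia. HOXA11 acts in limb, kidney and uterus. From the canonical TSS of HOXA9 the nearest THP-1 peak was 8759 bp away and the nearest RS4;11 peak 33393 bp away. For HOXA10 these distances were 17542 bp and 24610 bp, and for HOXA11 19658 bp and 13698 bp. By the canonical TSS, HOXA11 was the one gene of the 9 that lay nearer to a listed peak in RS4;11 than in THP-1 cells, and this was the HOXA13 peak. By the annotated 5′ end the same held for HOXA10, with 18669 bp to the RS4;11 peak and 23483 bp to the THP-1 peak.

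**Figure D3:**
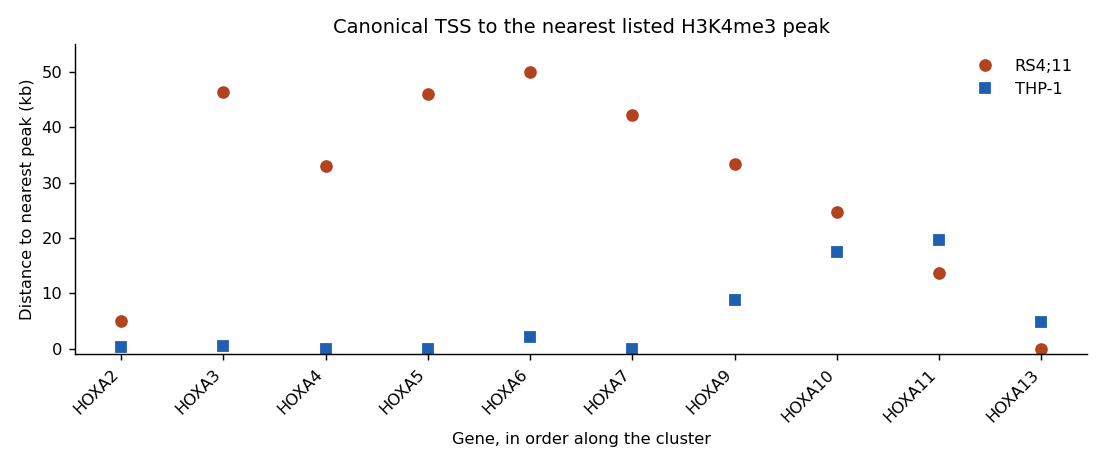
Distance in kb (y axis) from the canonical TSS of each HOXA gene (x axis, in cluster order) to the edge of the nearest listed H3K4me3 peak, with circles for RS4;11 and squares for THP-1 cells. From HOXA2 to HOXA7 no THP-1 distance exceeds the 2056 bp of HOXA6, and HOXA9 follows with 8759 bp, while the largest RS4;11 distance is the 50018 bp of HOXA6.

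The stretches without a listed peak were measured next. A single stretch of 101173 bp, from 27137376 to 27238548, held the start of all 9 genes in RS4;11 cells. In THP-1 cells the longest stretch near the cluster was 48111 bp, from 27196398 to 27244508, and held the 5′ ends of HOXA7, HOXA9, HOXA10, HOXA11 and HOXA13. A second stretch of 27904 bp lay between the peaks of HOXA2 and HOXA4, over the 5′ end of HOXA2 and part of HOXA3. Both long stretches were rich in CpG, with 3.58 CpGs per 100 bp in RS4;11 and 4.08 in THP-1 cells, where chromosome 7 as a whole had 1.01. Of 5474 stretches of at least 100 kb between neighbouring RS4;11 peaks, 63 held at least 9 starts of coding genes, 5 were at least as CpG dense as the HOXA stretch and 2 were both, each count with the HOXA stretch included. Of 11688 THP-1 stretches of at least 40 kb, 178 held at least 5 starts, 9 were at least as CpG dense and 1, the HOXA stretch itself, was both. The cutoffs for starts and CpG density were the HOXA stretch's own values. These counts therefore describe the stretch and cannot test whether it is unusual.

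The rows that the authors joined to each gene gave wider lists, because a row needs a peak only within 20 kb of a transcript. In the RS4;11 H3K4me3 list, 5 rows named 4 of the genes (HOXA2, HOXA3, HOXA10 and HOXA11), all through 2 peaks that lay outside these genes. None of these rows had an exon or intron flag. In the THP-1 list, 37 rows named all 9 genes through 8 distinct peaks. An exon flag, which places the peak on the gene itself, was set for HOXA2, HOXA4, HOXA5 and HOXA7. That makes 4 of the 9 genes, where 66.2% of the 18576 symbols had an exon flag in THP-1 cells, and 0 of the 9 in RS4;11 cells, where 60.0% had one. HOXA9 appeared in 3 THP-1 rows, HOXA10 in 4 and HOXA11 in 1, each with a flag for a peak up to 20 kb away and none for exon or intron.

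WDR5 gave no value at these genes. The WDR5 lists hold 703 peaks for the RS4;11 line and 225 for THP-1, and none lay in the cluster or within 20 kb of it. Peaks of WDR5 in promoter windows were rare in general, at 0.223% of protein-coding genes in RS4;11 and 0.0744% in THP-1 cells, so 0 of 9 genes does not set the HOXA cluster apart. The nearest WDR5 peak on chromosome 7 was 8528 kb from the cluster in RS4;11 cells, among 43 on that chromosome, and 23313 kb away in THP-1 cells, among 8.

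The lists themselves bear on how the empty HOXA promoters can be read. The widest peak was 4478 bp among 24212 H3K4me3 peaks of RS4;11 cells and 4446 bp among the 26523 of THP-1 cells. Peaks of 3000 bp or more numbered 3109 and 2628, those of 4000 bp or more 465 and 277, and those of 4500 bp or more 0 in both. The THP-1 peaks at the 9 genes were 607 to 2846 bp wide and the RS4;11 peak at HOXA13 was 1956 bp wide. Widths of listed peaks give no information on the promoters without a listed peak.

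**Figure D4:**
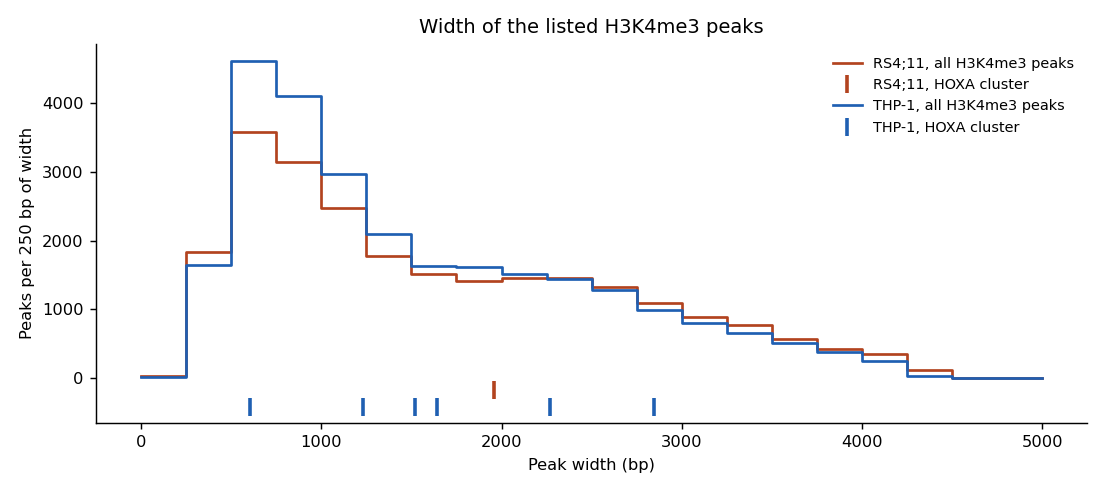
Number of listed H3K4me3 peaks per 250 bp of width (y axis) against peak width in bp (x axis) in RS4;11 (red) and THP-1 (blue) cells, with ticks below 0 marking the widths of the peaks from HOXA2 to HOXA13. The counts decline to 0 at 4500 bp, and the 1 RS4;11 and 6 THP-1 peaks marked lie between 607 and 2846 bp.

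Of 26 housekeeping genes, which nearly all cells transcribe, 15 had a listed H3K4me3 peak in the promoter window in each line. Of all protein-coding genes 49.1% had one in RS4;11 and 55.3% in THP-1 cells. The other 11 housekeeping genes had none in the given line, and 10 had none in either. ACTB, GAPDH, TBP, EEF1A1, B2M and POLR2A were among these 10, as was RAB7A, which had a peak over its canonical TSS in both lines. From the GAPDH TSS the nearest peak was 5557 bp away in RS4;11 and 13912 bp in THP-1 cells. The lines were also compared over all coding genes by the width of the promoter peak. Genes whose widest promoter peak was 2000 to 3000 bp in RS4;11 cells had no listed THP-1 peak in 5.65% of 4280 cases. That share was 17.7% of 1027 genes at 3500 to 4000 bp and 35.9% of 488 genes at 4000 to 4500 bp. In the opposite direction it was 12.3% of 4447 genes at 2000 to 3000 bp and 25.6% of 317 genes at 4000 to 4500 bp. Narrow peaks under 1000 bp were also unmatched more often, at 33.7% and 59.4%. At 1000 to 2000 bp the shares were 11.0% for RS4;11 peaks and 30.7% of 3070 genes for THP-1 peaks. The latter was above the THP-1 share at 4000 to 4500 bp. These shares used the window at the 5′ end of the gene, where HOXA7 had no peak. The THP-1 promoter peak was under 1000 bp wide at HOXA2 and 1000 to 2000 bp at HOXA4. At HOXA3, HOXA5 and HOXA6 it was 2000 to 3000 bp wide, where the THP-1 share was 12.3%. The part of missing wide peaks, or of real differences between the lines, in these shares was not tested. Whether a wide domain of H3K4me3 lies over HOXA9 and HOXA10, or over the whole cluster in RS4;11 cells, was not tested, since the lists give no signal outside peaks.

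**Figure D5:**
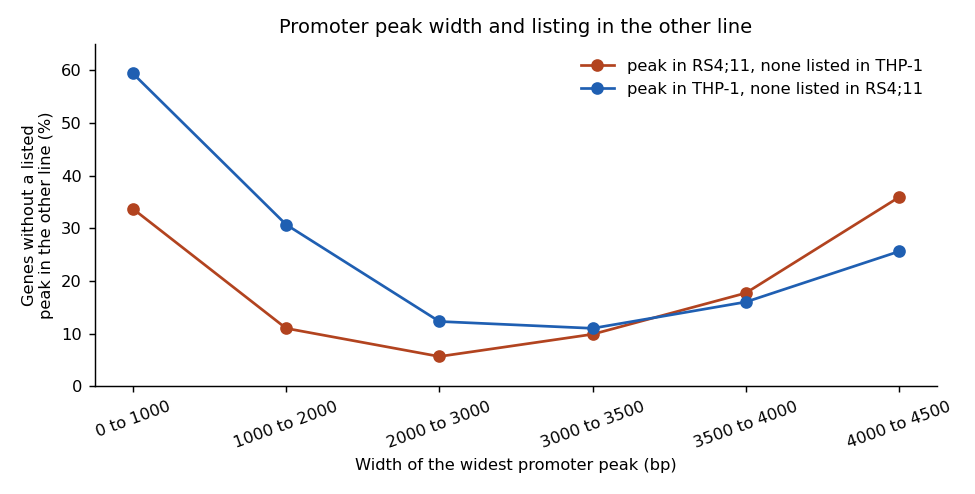
Share of protein-coding genes (y axis, %) with a promoter H3K4me3 peak in one line and none listed in the other, by the width in bp of the widest promoter peak (x axis), for peaks in RS4;11 (red) and THP-1 (blue) cells. The share is lowest between 2000 and 3500 bp and climbs to 35.9% and 25.6% at 4000 to 4500 bp. Under 1000 bp it is 33.7% for RS4;11 peaks and 59.4% for THP-1 peaks.

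Markers of the cell types gave a mixed check of the labels. Of 11 B-lineage genes, 5 had a promoter peak in the RS4;11 line and 4 in THP-1, but by the canonical TSS the order turned, with 4 and 5. Of 13 myelomonocytic genes, 4 had one in RS4;11 and 7 in THP-1 cells, and 4 and 8 by the canonical TSS. CD79A, which encodes a subunit of the B-cell receptor complex, had a promoter peak in RS4;11 cells and none in THP-1 cells under both TSS definitions. CD79B, the other such subunit, and CD22, a B-cell surface receptor, did so by the 5′ end of the gene, but in the canonical window a THP-1 peak covered 2 bp at CD79B and 653 bp at CD22. S100A8, S100A9, ITGAM and CD68, which encode myeloid proteins, had promoter peaks in THP-1 and not in RS4;11 cells under both definitions. PAX5 and EBF1, transcription factors that define B cells, went the other way, with a promoter peak in THP-1 and none in RS4;11 cells, as did SPI1, a myeloid factor with a promoter peak in RS4;11 cells alone. None of CD3D, CD3E, GATA1 and HBB, markers of T and erythroid cells, had a promoter peak in either line.

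HOXA proteins bind DNA together with TALE homeodomain partners of the MEIS, PBX and PKNOX families. Of 9 such genes, 2 had a promoter peak in RS4;11 cells (PBX4 and PKNOX1) and 4 in THP-1 cells (MEIS1, PBX3, PBX4 and PKNOX2). MEIS1, the partner of HOXA9 in leukemia, had 359 bp of its window covered in THP-1 cells, by a peak that began 142 bp downstream of the TSS and covered the canonical TSS. The nearest listed RS4;11 peak was 963342 bp from the MEIS1 TSS. PBX3, another partner of HOXA9, had 1468 bp covered in THP-1 cells, and its nearest RS4;11 peak lay 39411 bp away. PKNOX1 had the opposite order, with 1565 bp of its window covered in RS4;11 cells and 0 bp in THP-1 cells. A THP-1 peak lay inside the PKNOX1 gene, 758 bp from the TSS and so past the end of the window.

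The other HOX clusters were measured over whole intervals, for HOXB without the distant HOXB13. Over the whole HOXA cluster, an interval of 107099 bp that reaches past the 9 genes on both sides, listed peaks covered 3.51% in RS4;11 and 12.2% in THP-1 cells. HOXB, on chromosome 17, had 4.18% of the interval from HOXB1 to HOXB9 covered in RS4;11 and 9.75% in THP-1 cells. With HOXB13 counted, 1 and 6 of its 10 genes had a promoter peak, and HOXB13 was among the 6 of THP-1 cells. The 1 gene in RS4;11 cells was HOXB5, and by the canonical TSS HOXB7 also had a peak there. HOXD, on chromosome 2, had 6.24% and 7.36% covered, and 2 and 6 of 9 genes with a peak. HOXC, on chromosome 12, differed in direction, with 15.4% covered in the RS4;11 line against 9.51% in THP-1, though 4 of its 9 genes had a promoter peak in the RS4;11 line and 6 in THP-1. HOXC10 had the most covered HOXC promoter in both lines, with 1738 bp and 1919 bp. No WDR5 peak was listed in any of them, and with 1 sample per line these differences have no test.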

How the data were processed

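According to the methods, chromatin was sheared by sonication for WDR5 and by micrococcal nuclease for H3K4me3, while the labels name sonication for all samples. The authors aligned reads to hg19 with Eland, kept unique alignments, called peaks with MACS defaults and paired each peak with transcripts within 20 kb. The submitters' processing notes also name CASAVA 1.7 and 1.8.2. The deposited files hold positions and yes or no flags, with no tag counts or scores, so depth is unknown. The MACS version and the use of an input are not given in the sources used here.

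Distinct peaks were compared with GENCODE release 44 mapped to GRCh37, the coordinates of hg19, and no peak passed a chromosome end. Peaks on sequences outside that genome, 4 to 37 a list, were left out of gene overlaps. Overlap meant at least 1 bp. CpG was counted in the GRCh37 sequence. Promoter sequences came from RefSeq (GRCh38.p14) and were placed in hg19 by exact match, 15 of 15 once. Overlap code was tested on 2000 made-up genes and recovered 2000.

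The members and gene lists were chosen with earlier results of these data known. All 9 genes were named, with the outer, non-coding, flanking, cofactor, marker, housekeeping and other HOX genes from lists written for this purpose. The canonical TSS and exon flag settings were added after seeing the data. Some items are not reported here. No test was run, since each line and antibody has 1 sample. Python 3.11.15 and matplotlib 3.10.9 were used.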

Additional observations from a re-analysis of the deposited data

How the results depend on the processing

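The number of HOXA genes with promoter H3K4me3 in RS4;11 cells was 0 under every definition that required a peak at the gene. Counting symbols in the deposited rows gave 4 in RS4;11 and 9 in THP-1 cells, by the construction of rows that reach 20 kb. Requiring the peak center in the window left 2 genes in THP-1 cells, HOXA4 and HOXA6, and the TSS of every annotated transcript gave 6. The covered sequence was 3757 bp in RS4;11 and 13014 bp in THP-1 cells over the 107099 bp interval chosen for the whole cluster. From HOXA2 to HOXA11 it was 0 bp and 10115 bp. With 20 kb added on each side of the whole cluster it was 4551 bp and 13758 bp. Joining peaks less than 1000 or 3000 bp apart could not change the covered sequence, since neighbouring peaks lay at least 3162 bp apart. Leaving out peaks under 500 bp could not change it or the promoter counts, since the narrowest peak of the cluster was 607 bp wide. The 20 kb margin added no WDR5 peak. Of 26 alternative values, 19 were equal or, for counts, within 1.5 times. These include the joining and width settings, which could not differ, and the canonical TSS and exon flag, which were chosen after seeing the data. A filter on peak strength could not be run, and leaving out a replicate was not possible. No paired analysis was possible because each line and antibody has 1 sample.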

Other observations

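Beyond HOXA13 the THP-1 list went on toward EVX1, the homeobox gene next to the cluster. Between HOTTIP and EVX1 it held peaks from 27264644 to 27266007 (1364 bp) and from 27274570 to 27275755 (1186 bp), over none of the genes measured here. Peaks from 27281991 to 27283184 (1194 bp) and from 27285005 to 27286048 (1044 bp) lay on EVX1 and its antisense gene EVX1-AS, and the first covered the EVX1 TSS. Their CpG content was 4.69 to 8.05 per 100 bp, against 1.22 to 6.88 in the THP-1 peaks from HOXA2 to HOXA7. In RS4;11 cells none of these positions had a listed peak, and the nearest lay 41815 bp from the EVX1 TSS. On the HOXA2 side SKAP2, an adaptor protein gene of blood cells, had a THP-1 peak of 3355 bp over its canonical TSS and none there in RS4;11 cells, whose only SKAP2 peak was 587 bp wide and intronic. HIBADH, a metabolic gene farther out, had a promoter peak in both lines, from 27701225 to 27703171 in RS4;11 and from 27701247 to 27703844 in THP-1 cells, with left edges 22 bp apart.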
